A study of Mus musculus with 6 samples.

Results

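Interferon genes were compared on Affymetrix arrays between mouse embryonic fibroblasts that overexpress Fbxl10 and their parent line. The genes were chosen by function: the receptors of the type I and type II interferons, the Jak and Stat proteins with an inhibitor of them, the interferon regulatory factors (Irf), and effectors whose genes interferon switches on. Of 51 genes named in this way, 47 had a probe set that belongs to a single gene, out of 19936 genes measured in all. They comprised 4 receptor genes, 5 signalling genes, 7 Irf genes and 31 effector genes. Of the 4 others, 3 share a probe set with another gene and 1 was not analysed here.

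Both groups come from a Tet-off fibroblast line, in which a tetracycline-controlled transactivator can drive a transgene. The control group held 3 RNA samples of this line without transfection. The HA-Fbxl10 group held 3 RNA samples from this line after it had received an expression plasmid for HA-tagged Fbxl10 together with a hygromycin resistance plasmid and clones expressing the tagged protein had been selected. The samples of each group are called independent, but how many clones or cultures they represent is not stated in the labels. All p-values therefore rest on the spread among these 6 samples, and that spread may be technical. Effects of Fbxl10, of transfection and selection, and of the clone chosen cannot be told apart, because no cells with an empty vector were among the samples.

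Fbxl10, now named Kdm2b, is a histone demethylase that binds CpG-rich DNA and brings a Polycomb complex to it. Interferons are secreted proteins that warn cells of viruses. They bind receptors on which Janus kinases sit, the kinases phosphorylate Stat proteins, and Stat complexes that often include Irf9 switch on genes whose products detect or block viral RNA and proteins. Fibroblasts are a classical source of interferon beta and keep a low level of many interferon-stimulated genes even without infection.

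Values are log2 expression levels per probe set as deposited, so that a difference of 1 is a doubling. The array number limits the precision of all of them. Kdm2b itself read 7.38, 7.45 and 7.28 in control and 9.77, 9.75 and 9.58 in HA-Fbxl10 arrays, 5.03-fold higher (limma adjusted p = 3.31e-07). Fibroblast genes were bright, with 4 of 13 markers above 10 in both groups (Col1a1, Col1a2, Vim and Sparc), while Thy1, Fap, Dcn and Lum lay below the median of all genes (5.36) in both. Of the 13, 3 fell: Col3a1 (10.75 to 9.96, limma adjusted p = 6.14e-05), S100a4 (10.61 to 9.97) and Pdgfra (7.92 to 7.61), whose call ended without replicate 1 of either group, control replicate 3 or HA-Fbxl10 replicate 2 (adjusted p of 0.0703 to 0.0977) and with array medians subtracted (0.0629), and 0 rose. The summed linear signal of the 13 was 27900 to 29000 in control and 25900 to 28000 in HA-Fbxl10 arrays. Macrophage markers fell in 1 of 12 cases (Cd14, a call that ended without replicate 1 or 3 of either group and at 3 other settings, adjusted p of 0.00616 to 0.119 over all settings), with a summed linear signal of 250 to 257 in control and 239 to 242 in HA-Fbxl10 arrays, and the defining markers Ptprc, Cd68, Adgre1, Csf1r and Itgam did not exceed a mean of 5.47. Of 11 lymphocyte and dendritic cell markers 0 passed the limma test, with 2 at an unadjusted p under 0.05. Of 6 endothelial markers 1 rose, Kdr (3.69 to 4.20, limma adjusted p = 0.00277), and 0 fell. Kdr was dimmer than the median gene in both groups and kept its call wherever it was tested. Of 6 epithelial markers 0 passed. Their part in the results below was not tested.

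The interferon genes were mostly lower in the HA-Fbxl10 cells where they changed. Of the 47, 20 fell (42.6%), 1 rose (2.1%) and 26 did not pass limma's test at an adjusted p of 0.05. Over all genes 10.6% fell and 10.5% rose (21.1% in all), and the groups did not overlap for 36% of genes, against 29 of the 47 interferon genes (61.7%). The median difference, HA-Fbxl10 minus control, was -0.23 on the log2 scale for the 47 genes and 0 for all genes. Among genes above the median level, 12 of 26 interferon genes fell (46.2%), against 17.8% of all such genes. Most falls were modest: 18 of the 20 were under 2-fold, and the median was 1.43-fold. The members had been picked with earlier results of these data known, so these shares describe the list and are no independent evidence. In bulk RNA, fewer cells that express a gene and less RNA per cell cannot be told apart.

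**Figure D1:**
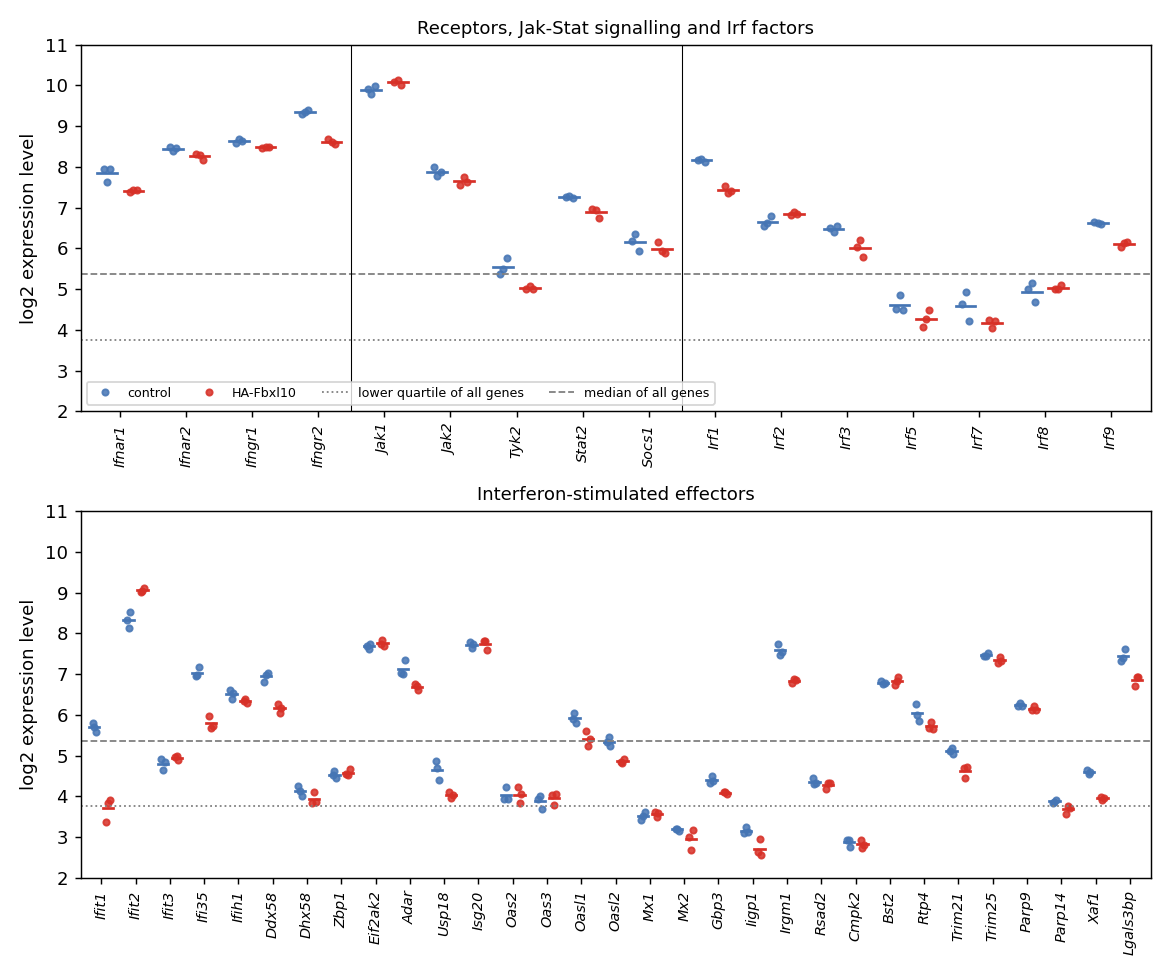
Log2 expression level of each of the 47 interferon genes in the 3 control and the 3 HA-Fbxl10 arrays (points, 1 per array; short lines, group means), with the median (5.36, dashed) and the lower quartile (3.75, dotted) of all gene means. The control points lie above the HA-Fbxl10 points for most genes whose groups separate, Ifit2 is the 1 called gene with the opposite order, and the Mx, Cmpk2 and Iigp1 points lie below the dotted line.

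The receptor tier was lower at every gene by its group means. Ifnar1 and Ifnar2 encode both chains of the type I receptor, and Ifngr1 and Ifngr2 both chains of the interferon gamma receptor. Ifngr2 read 9.29, 9.34 and 9.40 in control and 8.68, 8.61 and 8.56 in HA-Fbxl10 arrays. Ifnar1 read 7.95, 7.63 and 7.94 in control and 7.39, 7.44 and 7.42 in HA-Fbxl10 arrays. No HA-Fbxl10 array reached a control array for either gene, and control replicate 2 was the lowest control for Ifnar1. Ifngr2 fell by 0.73 ± 0.07 (SE, limma adjusted p = 8.83e-05), which is 1.66-fold, and Ifnar1 fell by 0.43 ± 0.09 (adjusted p = 0.00867).

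The partner chains differed less. Ifnar2 read 8.48, 8.39 and 8.46 in control and 8.32, 8.28 and 8.18 in HA-Fbxl10 arrays. Ifngr1 read 8.59, 8.68 and 8.64 in control and 8.46, 8.48 and 8.49 in HA-Fbxl10 arrays. These groups did not overlap either, yet neither gene passed the limma test: the difference was -0.18 for Ifnar2 (95% interval of limma's fit, not adjusted for many genes, -0.33 to -0.03, adjusted p = 0.0835) and -0.17 for Ifngr1 (-0.30 to -0.03, adjusted p = 0.0893). Each passed at 2 of 15 other settings, repeated quantile normalisation and a robust variance trend. Over all settings the limma adjusted p ran from 0.0354 to 0.31 for Ifnar2 and from 0.0297 to 0.669 for Ifngr1. Whether Ifngr2 differed more than Ifngr1 was not tested.

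Ifnar2, Ifnar1 and Ifngr2 stand in a row on chromosome 16 together with Il10rb, the chain shared by the receptors of interleukin 10 and of the lambda interferons, and many genes around them were lower too. Il10rb fell by 0.61 ± 0.08 (SE, limma adjusted p = 0.000513). Of 16 other expressed genes within 12 measured genes on either side (expressed meaning above the median level), Il10rb included, 10 fell and 0 rose, with a median difference of -0.31 and a range of -0.76 (Cryzl1 and Mrps6) to 0.24 (Gm10785). Over all expressed genes 17.8% fell and 19.2% rose. When a running median of 31 neighbouring expressed genes was removed from each array, the difference of Ifnar1 went from -0.43 to -0.08 and its call ended (limma adjusted p = 0.604, within 0.00124 to 0.604 over all settings), while Ifngr2 went from -0.73 to -0.38 and kept its call (adjusted p = 0.00397). Il10rb went from -0.61 to -0.28 and lost its call (adjusted p = 0.0514, within 9.06e-06 to 0.0514 over all settings). The value of Ifnar2 turned from -0.18 to 0.14, neither of which passed the test.

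**Figure D2:**
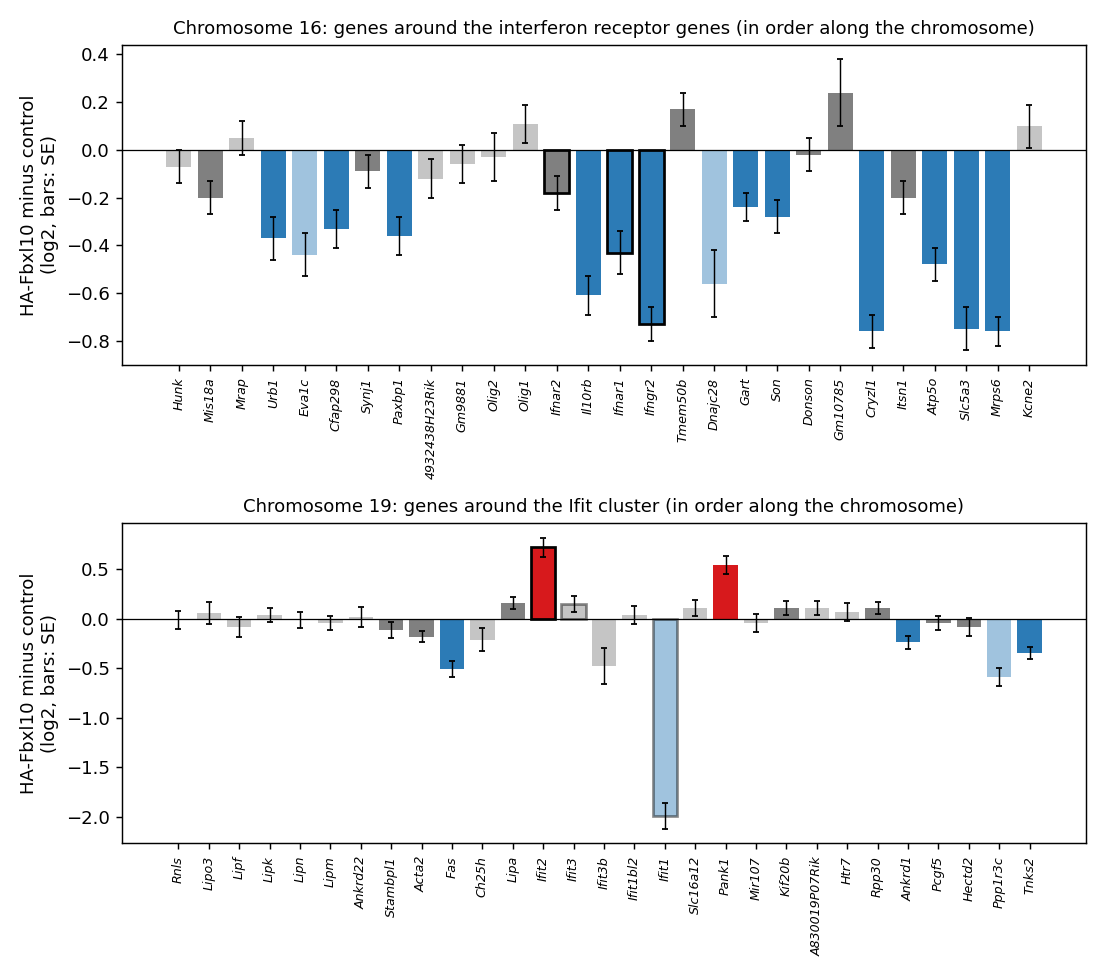
Difference between HA-Fbxl10 and control cells (log2, bars; error bars, SE) of measured genes in their order along chromosome 16 around the interferon receptor genes and along chromosome 19 around the Ifit genes. Blue bars fell, red bars rose and grey bars did not pass the limma test; pale bars are genes below the median level, and outlined bars are the interferon genes. Around the receptor genes 10 of 16 other expressed genes fell, and around the Ifit genes 3 of 12 fell and 1 rose. Over all genes above the median level 17.8% fell and 19.2% rose.

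In the signalling tier, Tyk2 and Stat2 fell and the others did not pass the test. Tyk2 is the Janus kinase of the Ifnar1 chain, and Jak1 serves both receptors. Tyk2 read 5.36, 5.49 and 5.75 in control and 5.0, 5.07 and 5.01 in HA-Fbxl10 arrays. Jak1 read 9.92, 9.78 and 9.99 in control and 10.08, 10.13 and 10.02 in HA-Fbxl10 arrays. Jak2, the kinase of the Ifngr2 chain, read 8.0, 7.78 and 7.87 in control and 7.55, 7.76 and 7.64 in HA-Fbxl10 arrays. All HA-Fbxl10 arrays lay below all controls for Tyk2 and Jak2 and above them for Jak1. Tyk2 fell by 0.51 ± 0.10 (SE, limma adjusted p = 0.00473), and its mean over both groups lay just below the median of all genes. The differences of Jak1 (0.18, 95% interval 0.01 to 0.34) and Jak2 (-0.23, -0.42 to -0.05) did not pass the adjusted threshold. Each passed at 2 of 15 other settings (limma adjusted p of 0.0225 to 0.334 for Jak1 and 0.0343 to 0.392 for Jak2 over all).

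Stat2 is the Stat protein particular to type I and lambda interferon signalling, where it pairs with Irf9. It read 7.27, 7.29 and 7.23 in control and 6.96, 6.94 and 6.74 in HA-Fbxl10 arrays, without overlap, and fell by 0.38 ± 0.08 (SE, limma adjusted p = 0.00583). Its 30 nearest expressed neighbours on chromosome 10 had a median difference of -0.17. With the running median removed the value of Stat2 was -0.22 and the call ended (adjusted p = 0.0859, within 0.00182 to 0.0859 over all settings). Socs1, which binds and inhibits Janus kinases, read 6.18, 6.34 and 5.93 in control and 6.15, 5.94 and 5.88 in HA-Fbxl10 arrays. Its groups overlapped, and the difference was -0.16 (95% interval -0.41 to 0.09).

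Among the 7 Irf genes, Irf1, Irf9 and Irf3 fell, none rose and the other 4 missed the threshold. Irf1, an early target of interferon gamma that activates further genes, read 8.16, 8.19 and 8.12 in control and 7.54, 7.36 and 7.41 in HA-Fbxl10 arrays. Irf9, the DNA-binding part of the complex with Stat2, read 6.65, 6.62 and 6.59 in control and 6.04, 6.12 and 6.15 in HA-Fbxl10 arrays. Irf3, which sensors of viral RNA and DNA activate to start interferon production, read 6.49, 6.41 and 6.55 in control and 6.03, 6.20 and 5.79 in HA-Fbxl10 arrays. None of the 3 genes had overlapping groups. Irf1 fell by 0.72 ± 0.07 (SE, limma adjusted p = 0.000122), Irf9 by 0.52 ± 0.06 (adjusted p = 0.000448) and Irf3 by 0.48 ± 0.10 (adjusted p = 0.00832). A dimmer probe set of Irf1, with a mean of 4.67, did not share the fall, and averaging both gave a difference of -0.36.

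Irf7, the factor that amplifies interferon alpha production, was dim and variable, with 4.64, 4.93 and 4.21 in control and 4.23, 4.05 and 4.22 in HA-Fbxl10 arrays. Control replicate 3 lay inside the HA-Fbxl10 range. The difference of Irf7 was -0.43 (limma adjusted p = 0.0843), and without control replicate 3 it was -0.62 with an adjusted p of 0.00352 (0.00352 to 0.223 over all settings). Without control replicate 2 it was -0.26 (adjusted p = 0.223). Irf2, which competes with Irf1 for the same sites, was at 0.19 (adjusted p = 0.12) and passed the test without control replicate 3 (0.26, adjusted p = 0.0335, within 0.0335 to 0.999 over all settings). Irf5 (-0.33) and Irf8 (0.10), factors best known from myeloid cells, were dimmer than the median gene, and their groups overlapped.

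The 31 effector genes split into those that fell and those that did not pass the test, with 1 exception. Of them 13 fell (41.9%, against 10.6% of all genes), 1 rose (against 10.5%) and 17 did not pass. The 17 included 10 genes dimmer than the median gene, where these values separate signal from background poorly, and 7 above it. The 20 interferon genes that fell included 8 such dim genes too. These were Tyk2 and the effectors Ifit1, Usp18, Oasl2, Gbp3, Iigp1, Trim21 and Xaf1, and their falls carry the same limit.

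**Figure D3:**
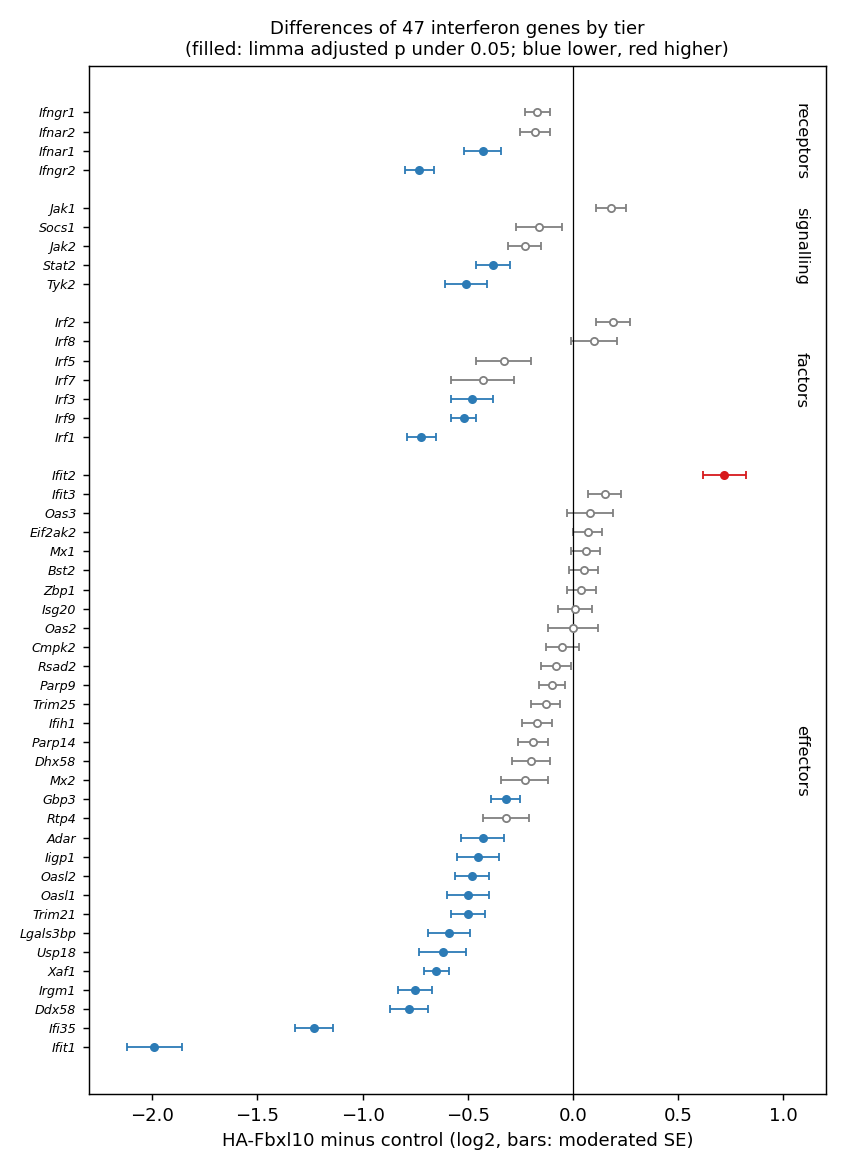
Difference between HA-Fbxl10 and control cells (log2, points; bars, moderated SE) for the 47 interferon genes, sorted within each tier. Filled blue points fell and the filled red point, Ifit2, rose at a limma adjusted p under 0.05, and open points did not pass. Ifit1 (-1.99) and Ifi35 (-1.23) lie farthest to the left.

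The Ifit genes, whose products bind viral RNA and translation factors, went in opposite directions within 1 cluster on chromosome 19. Ifit1 read 5.79, 5.71 and 5.59 in control and 3.36, 3.85 and 3.90 in HA-Fbxl10 arrays. Ifit2 read 8.34, 8.14 and 8.53 in control and 9.01, 9.05 and 9.11 in HA-Fbxl10 arrays. Ifit3 read 4.91, 4.66 and 4.85 in control and 4.97, 4.99 and 4.90 in HA-Fbxl10 arrays. The groups of Ifit1 and of Ifit2 lay far apart and in opposite order, and those of Ifit3 overlapped. Ifit1 fell by 1.99 ± 0.13 (SE, limma adjusted p = 1.53e-05). That is 3.98-fold, best read as a lower bound since the HA-Fbxl10 mean of 3.70 lay below the lower quartile of all genes. Ifit2 rose by 0.72 ± 0.10 (adjusted p = 0.000757), or 1.65-fold, and Ifit3 differed by 0.15 (95% interval -0.03 to 0.32). Among 12 other expressed genes around the cluster 3 fell and 1 rose, with a median of -0.06. Over all expressed genes 17.8% fell and 19.2% rose. The differences of Ifit1 and Ifit2 kept their calls at every setting tried (-2.09 to -1.82 and 0.62 to 0.84). Ifit1, being dimmer than the median gene, was not adjusted when running or chromosome medians were removed.

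Since these neighbours moved apart, the same stretch of each promoter is shown, from 160 to 61 bases before the annotated start, 5′ to 3′ on the plus strand (RefSeq, GRCm38.p6). Capitals mark the core of the interferon-stimulated response element, the site of the complex of Stat proteins with Irf9, searched as GAAANNGAAA or, on the other strand, TTTCNNTTTC. The stretches lie at chr19:34640729-34640828 for Ifit1, chr19:34550534-34550633 for Ifit2 and chr19:34583369-34583468 for Ifit3.
Ifit1: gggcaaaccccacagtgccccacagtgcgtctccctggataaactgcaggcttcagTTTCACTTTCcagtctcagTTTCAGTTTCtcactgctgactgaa
Ifit2: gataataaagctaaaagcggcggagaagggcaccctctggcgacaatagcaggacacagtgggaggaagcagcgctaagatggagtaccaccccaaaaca
Ifit3: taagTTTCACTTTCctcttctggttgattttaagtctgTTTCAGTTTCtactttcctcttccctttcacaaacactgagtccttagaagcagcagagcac
Ifit1 and Ifit3 each hold 2 cores there, and neither of the 2 annotated windows of Ifit2 holds these letters. The cores were present both in the gene that fell most and in a neighbour that did not pass the test. That neighbour, Ifit3, was dimmer than the median gene in both groups (4.81 and 4.95), where these values separate signal from background poorly.

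Ifi35, a cytosolic protein that binds the related Nmi, was the other gene that fell by at least 2-fold. It read 6.96, 6.98 and 7.17 in control and 5.98, 5.68 and 5.74 in HA-Fbxl10 arrays, and all HA-Fbxl10 values were lower by a wide margin. Ifi35 fell by 1.23 ± 0.09 (SE, limma adjusted p = 3.39e-05), or 2.35-fold. Among all genes, 0.592% fell by at least 2-fold with a call.

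Of 6 sensors and editors of foreign nucleic acid, Ddx58 and Adar fell. Ddx58 encodes RIG-I, which detects RNA with a triphosphate end, and read 6.81, 6.98 and 7.04 in control and 6.28, 6.05 and 6.17 in HA-Fbxl10 arrays. Adar, which edits adenosine to inosine in double-stranded RNA, read 7.03, 7.0 and 7.35 in control and 6.77, 6.70 and 6.61 in HA-Fbxl10 arrays. Both genes were lower in all HA-Fbxl10 arrays. Ddx58 fell by 0.78 ± 0.09 (SE, limma adjusted p = 0.000272) amid neighbours with a median of 0. Adar fell by 0.43 ± 0.10 (adjusted p = 0.0118) on chromosome 3, where its 30 neighbours had a median of -0.36. Its call ended with the running median removed (-0.05, adjusted p = 0.786), with chromosome medians removed (-0.20, adjusted p = 0.173) and without HA-Fbxl10 replicate 3 (-0.39, adjusted p = 0.0536), within 0.00291 to 0.786 over all settings.

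The other 4 sensors did not pass. The difference was -0.17 for Ifih1 (MDA5, a sensor of long double-stranded RNA), -0.20 for Dhx58 (LGP2, their regulator), 0.04 for Zbp1 (a sensor of Z-form nucleic acid) and 0.07 for the kinase gene Eif2ak2 (PKR, which halts translation on double-stranded RNA). Ifih1 lay amid neighbours with a median of 0.15 and passed the test once the running median was removed (-0.30, limma adjusted p = 0.0156, within 0.0156 to 0.432 over all settings). For Eif2ak2 the 95% interval of the difference ran from -0.08 to 0.22.

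Usp18, the protease that removes the ubiquitin-like Isg15 from proteins and dampens signalling at Ifnar2, read 4.88, 4.69 and 4.41 in control and 4.11, 3.96 and 4.04 in HA-Fbxl10 arrays. The groups were apart, although control replicate 3 stood closest to them, and Usp18 fell by 0.62 ± 0.11 (SE, limma adjusted p = 0.0032) at a level below the median of all genes.

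In the oligoadenylate synthetase family the Oas-like genes Oasl1 and Oasl2 fell, and Oas2 and Oas3 did not pass. Oasl1 read 5.90, 6.05 and 5.80 in control and 5.60, 5.23 and 5.41 in HA-Fbxl10 arrays. Oasl2 read 5.33, 5.46 and 5.23 in control and 4.84, 4.83 and 4.92 in HA-Fbxl10 arrays. Neither gene's groups overlapped. Oasl1, whose product restrains Irf7 translation, fell by 0.50 ± 0.10 (SE, limma adjusted p = 0.0068) and Oasl2 by 0.48 ± 0.08 (adjusted p = 0.00176), in a part of chromosome 5 where neighbours were higher by a median of 0.12. Oas2 and Oas3 were dimmer than the median gene in both groups, with array values of 3.68 to 4.24 and differences of 0 and 0.08. The exonuclease gene Isg20 was well above the median level and differed by 0.01 (95% interval -0.17 to 0.20).

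Of 5 interferon-induced GTPase genes, Irgm1, Iigp1 and Gbp3 fell and Mx1 and Mx2 did not pass. Irgm1, which guards membranes against intracellular pathogens, read 7.74, 7.46 and 7.55 in control and 6.79, 6.87 and 6.85 in HA-Fbxl10 arrays. Gbp3, a guanylate-binding protein, read 4.34, 4.51 and 4.39 in control and 4.10, 4.11 and 4.06 in HA-Fbxl10 arrays. Iigp1, which attacks the vacuoles of parasites, read 3.11, 3.24 and 3.13 in control and 2.63, 2.95 and 2.55 in HA-Fbxl10 arrays. No HA-Fbxl10 array reached a control for any of these 3 genes, though both group means of Iigp1 lay below the lower quartile of all genes, where these values separate signal from background poorly. The fall of Iigp1 is therefore uncertain, and without it the count of interferon genes that fell is 19. Irgm1 fell by 0.75 ± 0.08 (SE, limma adjusted p = 0.000252), Gbp3 by 0.32 ± 0.07 (adjusted p = 0.00814) and Iigp1 by 0.45 ± 0.10 (adjusted p = 0.0119). Mx1 (0.06) and Mx2 (-0.23), classical inhibitors of influenza and other viruses, lay below the lower quartile of all genes in both groups, so their values are as uncertain as those of Iigp1. Gbp, Irgm, Oas and Ifit genes belong to families with close copies, and how far their probes separate the copies was not tested.

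Among 4 genes of membrane, lipid and nucleotide effectors 0 passed the limma test, with 1 (Rtp4) at an unadjusted p under 0.05. Bst2, or tetherin, which holds budding virus at the cell surface, was at 6.79 ± 0.04 in control and 6.84 ± 0.10 in HA-Fbxl10 cells (SD, n = 3 each), a difference of 0.05 with a 95% interval of -0.11 to 0.21. Rsad2 (viperin) and its neighbour Cmpk2, which together make an antiviral nucleotide, differed by -0.08 and -0.05, and both were dim. Rtp4, a binder of viral RNA, read 6.27, 6.01 and 5.85 in control and 5.69, 5.83 and 5.65 in HA-Fbxl10 arrays. These groups touched closely without overlap, and the difference was -0.32 (limma adjusted p = 0.0643). Without control replicate 1 it was -0.20 (adjusted p = 0.186). It passed at 5 of 15 other settings (adjusted p of 0.0152 to 0.19 over all). Among the 5 were those without control replicate 3 (-0.41, adjusted p = 0.0179) and with the running median removed (-0.51, adjusted p = 0.0152).

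Trim21, an antibody receptor in the cytosol and a ubiquitin ligase, read 5.12, 5.20 and 5.03 in control and 4.69, 4.46 and 4.71 in HA-Fbxl10 arrays. Xaf1, a promoter of cell death, read 4.66, 4.55 and 4.59 in control and 3.98, 3.91 and 3.97 in HA-Fbxl10 arrays. Lgals3bp, a secreted glycoprotein, read 7.32, 7.39 and 7.63 in control and 6.71, 6.93 and 6.94 in HA-Fbxl10 arrays. All 3 genes had separate groups with the HA-Fbxl10 arrays lower. Xaf1 fell by 0.65 ± 0.06 (SE, limma adjusted p = 0.000142), Lgals3bp by 0.59 ± 0.10 (adjusted p = 0.00258) and Trim21 by 0.50 ± 0.08 (adjusted p = 0.00269). With the running median removed Lgals3bp was at -0.37 and kept its call (adjusted p = 0.033, within 0.00021 to 0.033 over all settings). Trim25, the ligase that activates RIG-I, differed by -0.13, the ADP-ribosyltransferase genes Parp9 and Parp14 by -0.10 and -0.19, and none of these passed.

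Neighbouring genes were compared for every interferon gene because earlier results of these data had shown shifts by region. For the 26 interferon genes above the median level, the median difference of the 30 nearest expressed neighbours ran from -0.36 (Adar) to 0.27 (Eif2ak2) and was below 0 for 16 of them. The interferon gene lay below its neighbours' median in 21 of 26 cases, with a median gap of -0.21. After the running median was removed, 9 of the 12 of these genes that had fallen kept the call, Ifnar1, Stat2 and Adar lost it, and Ifih1 and Rtp4 gained it. Removing it left 8.26% of all genes lower and 7.14% higher. The 21 genes below the median level were not adjusted and kept their values.

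**Figure D4:**
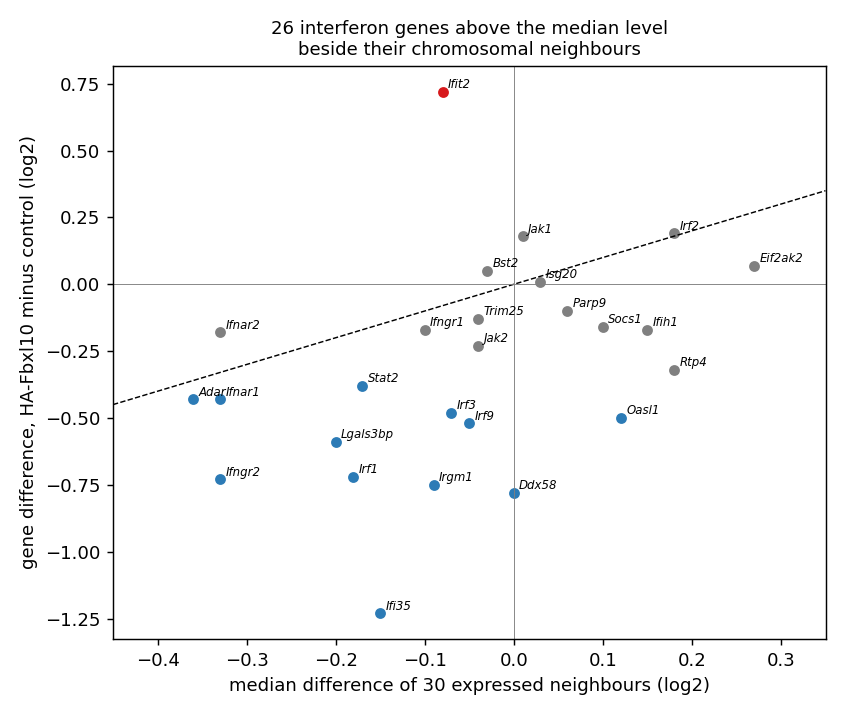
Difference of each of the 26 interferon genes above the median level (vertical axis, log2, HA-Fbxl10 minus control) against the median difference of its 30 nearest expressed genes on the same chromosome (horizontal axis, log2). Blue genes fell, the red gene rose, grey genes did not pass the limma test, and the dashed line marks equal values. Adar and Ifnar1 lie near the line, while Ifi35 and Ddx58 lie far below it and Ifit2 far above.

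Promoter letters were compared for the 37 interferon genes with a RefSeq window of 300 bases (250 before the start and 50 after it), 46 windows in all. The response element core stood in 14 of the 46 windows (30.4%), against 3.4% of 32851 windows of all genes. By call, it stood in 6 of 23 windows of genes that fell (26.1%) and in 8 of 21 windows of genes that did not pass (38.1%). The core of the gamma activated site, which binds Stat dimers, was searched as TTCNNNGAA, which reads the same on both strands, and stood in 11 of 46 windows (23.9%), against 8.3% of all. The 2 cores overlapped in 1 window, that of Bst2. CpG density, as the observed over expected ratio, had a median of 0.40 in windows of genes that fell, 0.60 in those that did not pass and 0.38 over all windows. It was 0.77 for receptor, 0.89 for signalling, 0.69 for Irf and 0.29 for effector genes, so the values by call mix unlike tiers. Within the effector tier it was 0.27 in windows of genes that fell and 0.29 in those that did not pass. These are descriptions of letters and show no binding.

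The cores of genes on either side of the test are set beside each other here, each with up to 20 bases on both sides, 5′ to 3′ on the gene's own strand, with the core in capitals (RefSeq, GRCm38.p6). Stat2 (chr10:128270256-128270305, plus), Gbp3 (chr3:142559979-142560034, plus) and Irgm1 (chr11:48871421-48871470, minus) fell. Bst2 (chr8:71537567-71537622, minus), Rsad2 (chr12:26456543-26456592, minus) and Oas3 (chr5:120777705-120777754, minus) did not pass the test. Gbp3, Rsad2 and Oas3 were dimmer than the median gene in both groups.
Stat2: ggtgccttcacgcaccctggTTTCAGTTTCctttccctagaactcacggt
Gbp3: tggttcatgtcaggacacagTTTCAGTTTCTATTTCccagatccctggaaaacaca
Irgm1: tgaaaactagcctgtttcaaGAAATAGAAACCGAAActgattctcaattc
Bst2: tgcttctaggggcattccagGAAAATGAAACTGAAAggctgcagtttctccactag
Rsad2: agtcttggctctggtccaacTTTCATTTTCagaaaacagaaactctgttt
Oas3: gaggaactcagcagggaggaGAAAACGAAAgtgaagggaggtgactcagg
Gbp3, Irgm1 and Bst2 each show a pair of overlapping cores. The windows of Trim21, which fell, and of Socs1, which did not pass, also hold such a pair. The genes shown are examples, and whether overlapping pairs differ by call was not tested.

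Other genes of the pathway were counted from lists of 95 genes in all, of which 81 were measured. Their counts are to be read against the 10.6% of all genes that fell and the 10.5% that rose. Of all genes above the median level, 17.8% fell and 19.2% rose. Those shares are the nearer ones for the route from sensors to interferon production and for the other Jak-Stat genes. Only 1 of 11 and 3 of 19 genes of these lists were dimmer than the median gene, against 22 of the 42 further interferon-induced genes. Among 42 further interferon-induced genes 10 fell, 2 rose and 30 did not pass, with a median of -0.14. Trim30a, a regulator of inflammatory signalling, fell by 1.64 ± 0.09 (SE, limma adjusted p = 4.17e-06) and Lgals9, a galectin, fell by 1.12 ± 0.10 (adjusted p = 8.91e-05). Trim30a went from 5.49 to 3.84, and its mean over both groups lay below the median of all genes. The size of its fall carries the limit of the other dim genes, and it was not adjusted when running or chromosome medians were removed. Ifi27 fell by 0.87 and Nmi, the partner of Ifi35, by 0.79. These 4 had the largest differences of that list, and the 2 that rose were Pml (0.27) and Samhd1 (0.20). Both rises were unsteady. Pml was at 0.06 with the running median removed (limma adjusted p = 0.662) and also lost its call with chromosome medians removed and when either control replicate 2 or HA-Fbxl10 replicate 1 was left out (0.00815 to 0.671 over all settings). Samhd1, at an adjusted p of 0.0499, lost its call without any 1 array other than control replicate 3 and at 3 other settings (0.00497 to 0.153). Of 9 interferon genes themselves 1 rose, Ifnz (0.45 ± 0.10, adjusted p = 0.00902), which belongs to a family of many close copies that these probes may not separate. Ifnb1, the fibroblast interferon, was at 3.58 in control and 3.68 in HA-Fbxl10 cells, below the lower quartile of all genes.

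Among 11 genes of the route from sensors to interferon production, 3 fell and 2 rose. Azi2, an adaptor of the kinase Tbk1, rose by 0.49 ± 0.07 (SE, limma adjusted p = 0.000996) and by 0.27 with the running median removed, and Sting1, the adaptor for cytosolic DNA, fell by 0.39 ± 0.07 (adjusted p = 0.00328). The DNA sensor gene Cgas rose by 0.28 amid neighbours with a median of 0.33, and its call ended with the running median (-0.02, adjusted p = 0.85) or chromosome medians removed and without control replicate 1 (0.00397 to 0.85 over all settings). Ikbke, a kinase related to Tbk1, fell by 0.27, a call that ended without replicate 1 or 3 of the controls or replicate 2 or 3 of the HA-Fbxl10 cells and at 3 other settings (0.0147 to 0.0984). Of 19 other Jak-Stat genes and inhibitors 6 fell and 2 rose. After Il10rb, described above, the largest changes were those of Pias1, an inhibitor of activated Stat proteins, which rose by 0.60, of Stat3, which fell by 0.36, of Ptpn11, a phosphatase of the pathway, which rose by 0.33, and of Socs2, which fell by 0.33. With the running median removed Pias1 was at 0.36 and kept its call (limma adjusted p = 0.0227), while Stat3 (-0.15, adjusted p = 0.14, within 0.000213 to 0.14 over all settings) and Ptpn11 (0.15, adjusted p = 0.136, within 0.000155 to 0.136) lost theirs. Socs2 lost its call without replicate 1 or 3 of either group and at 3 other settings (0.00474 to 0.126). Stat5a (-0.24), Socs3 (-0.32) and Socs6 (-0.28) also fell. With the running median removed they lost their calls (limma adjusted p of 0.903, 0.207 and 0.408). Socs3 (0.0616) and Socs6 (0.14) lost them with probe sets averaged too. Of the 6 that fell, Socs2 alone kept its call with the running median removed.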

How the data were processed

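The deposited values are log2 levels, 1 per probe set and array, which the authors computed with RMA according to the submitters' processing notes. Its version and settings and the genome build are not stated there. RMA equalises the distributions of the arrays, so a shift shared by most genes would not show, and it compresses low values. Values ran from 1.72 to 13.9. Batch was not tested, as no detection calls or scan batches were at hand. Of 35556 probe sets, 21789 had 1 gene in the platform annotation, 1621 several and 12146 none named here. Symbols were updated by Entrez identifier (21698) or accession (3) to RefSeq (GRCm38.p6), and 88 kept theirs. The highest-mean probe set stood for each gene. A linear model with moderated variances was fitted to all 6 arrays in limma 3.58.1 (R 4.3.3), and two-sided p-values were adjusted by Benjamini-Hochberg over 19936 genes (threshold 0.05), without a filter on dim genes. The test of HA-Fbxl10 against control was tried on simulated data of 19936 genes. Of 200 changed genes above the median level, 83.6% of changes of 0.5 and 100% of changes of 1 (log2) were recovered, with 15 false calls among 204. The simulated noise was independent between genes, and far fewer genes changed than the 4208 called in the data. These rates therefore need not hold for the data, and they do not cover the 21 interferon genes below the median level.

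All measured interferon genes were to be named, with array values for receptor and signalling genes and for others past the threshold, and from each related list the 4 largest changes among genes past the threshold. Array values of Ifit3, Irf7 and Rtp4, and Ifnb1 and the further genes named, were added after their values were seen. The genes, lists and settings were chosen with earlier results of these data known. Same-numbered replicates did not deviate together (correlations of 0.09, -0.28 and -0.09).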

Additional observations from a re-analysis of the deposited data

How the results depend on the processing

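Over 15 other ways of fitting the data and a stricter threshold, 18 to 25 interferon genes were lower, and 0 of 746 recomputed differences of single genes reversed a call (720 stayed on their side of the threshold, 7 lost a call, 19 gained one). Many of these differences could not move. The stricter threshold, the robust variance trend, the replicate block and leaving out dim genes do not alter a gene's difference. Averaging probe sets could alter Irf1 alone. The 21 interferon genes below the median level were not adjusted when running or chromosome medians were removed. The lack of reversals was thus partly fixed in advance and says little about stability. Of the 21 called genes, 18 kept the call at an adjusted p of 0.05 wherever they were tested, the exceptions being Ifnar1, Stat2 and Adar. The 18 included 8 genes below the median level, which the removal of running or chromosome medians left as they were. Iigp1 was among the 30% dimmest genes and was not tested when these were left out. At an adjusted p of 0.01, where 2536 of all genes passed, Adar and Iigp1 dropped out. The number of interferon genes higher was 2 rather than 1 after repeated quantile normalisation, with a robust variance trend and with chromosome medians removed, and 1 to 2 when single arrays were left out. The added gene was Irf2 or Jak1. Subtracting array medians changed the split of all called genes from 2111 lower and 2097 higher to 1560 and 2650, while the interferon genes stayed at 20 lower and 1 higher. Replicate numbers did not pair the samples; with the replicate number as a block 20 interferon genes were lower and 1 higher, the same 21 genes as without it, and 3397 of all genes passed rather than 4208. Levels below the lower quartile of all genes limit what can be said of Mx1, Mx2, Iigp1 and Cmpk2.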
